A study of Mus musculus with 20 samples.

Results

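The mRNA levels of 5 genes for transcriptional regulators of the proximal tubule, Hnf4a, Esrra, Ppargc1a, Rxra and Nr1h4, were compared in mouse kidney cortex. The genes were chosen by name, and each was found by its mouse Ensembl identifier among the 43430 genes counted in every library. All 5 were among the 16152 genes that passed the filter on low counts. The 20 libraries fell into 4 groups of 5, from male mice of the inbred strain C3H/HeJ. Wild-type mice (WT) were compared with Sweet Pee mice (SP), which carry a missense mutation in Slc5a2, the gene for the sodium-glucose cotransporter SGLT2, and are homozygous with no functional SGLT2. All mice started a high-fat diet (HFD) at 10 weeks of age. After 8 weeks of diet they received either DMSO, the placebo, or MAT2Ai for another 8 weeks. MAT2Ai, a 2-chloro-6-fluorostyryl derivative of N-methylaniline, is an inhibitor of methionine adenosyltransferase 2A, the enzyme that makes the methyl donor S-adenosylmethionine, and it was injected intraperitoneally at 10 mg/kg 3 times a week. The groups are called WT placebo, WT MAT2Ai, SP placebo and SP MAT2Ai. No group on a normal diet was analysed here, so every value below is from mice on HFD. The Slc5a2 mutation is present in all cells of the SP mice, and mRNA was extracted from whole cortex rather than from sorted tubule cells.

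The proximal tubule reabsorbs most of the filtered glucose, amino acids, phosphate and bicarbonate, and it draws its energy mainly from mitochondrial oxidation of fatty acids. HNF4A is a nuclear receptor that binds DNA as a homodimer and is needed for proximal tubule cells to mature and to express their carriers. ESRRA (estrogen-related receptor alpha) is an orphan nuclear receptor that drives mitochondrial and fatty acid oxidation genes. Ppargc1a encodes PGC-1α, a coactivator that binds ESRRA, PPARA and other receptors and raises mitochondrial biogenesis. RXRA is the shared partner with which many receptors, FXR among them, form heterodimers. Nr1h4 encodes FXR, the bile acid receptor, which in the kidney regulates bile acid carriers and lipid metabolism.

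Coordinates are those of the mouse build mm10. Hnf4a (ENSMUSG00000017950) spans chr2:163506808-163572910 on the plus strand. Esrra (ENSMUSG00000024955) spans chr19:6910977-6921813 on the minus strand. Ppargc1a (ENSMUSG00000029167) spans chr5:51454250-51567726 on the minus strand. Rxra (ENSMUSG00000015846) spans chr2:27676440-27762957 on the plus strand. Nr1h4 (ENSMUSG00000047638) spans chr10:89454234-89533585 on the minus strand. A pair of these genes overlap a counted gene on the other strand. Hnf4a overlaps the antisense gene Hnf4aos, which had 212 to 986 counts per library, and Esrra overlaps Trmt112, which had 1269 to 1791. The strand setting of the counting was not given in the sources used here, so reads of these overlapping partners may not be fully separated.

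Promoter sequences were taken from RefSeq annotation on GRCm38.p6, from 250 bases before to 50 bases after an annotated start, and all 5 genes had at least 1. The pair of Hnf4a starts is shown because the count for this gene adds transcripts from both, and the Nr1h4 and Ppargc1a promoters because these genes are the member whose level differed most between groups and the one with the lowest level. Capitals mark matches to the letters searched, on either strand.
Hnf4a, upstream start, chr2:163506607-163506906, plus strand: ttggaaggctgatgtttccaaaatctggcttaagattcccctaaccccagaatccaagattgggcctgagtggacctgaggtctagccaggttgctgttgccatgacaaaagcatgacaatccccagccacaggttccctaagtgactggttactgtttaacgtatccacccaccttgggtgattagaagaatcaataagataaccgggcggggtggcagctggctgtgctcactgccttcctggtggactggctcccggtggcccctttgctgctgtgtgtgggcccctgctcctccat
Hnf4a, downstream start, chr2:163546905-163547204, plus strand: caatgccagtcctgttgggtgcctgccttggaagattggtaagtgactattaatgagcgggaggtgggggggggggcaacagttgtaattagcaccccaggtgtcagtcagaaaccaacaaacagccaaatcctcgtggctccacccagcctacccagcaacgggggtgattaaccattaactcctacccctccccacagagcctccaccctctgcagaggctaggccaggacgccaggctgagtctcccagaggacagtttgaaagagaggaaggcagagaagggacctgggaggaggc
Nr1h4, chr10:89506609-89506908, minus strand: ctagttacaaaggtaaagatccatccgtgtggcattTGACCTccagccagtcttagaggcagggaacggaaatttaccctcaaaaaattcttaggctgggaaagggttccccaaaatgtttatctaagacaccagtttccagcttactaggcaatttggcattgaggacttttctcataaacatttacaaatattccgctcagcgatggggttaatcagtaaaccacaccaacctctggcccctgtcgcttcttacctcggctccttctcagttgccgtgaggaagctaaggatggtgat
Ppargc1a, chr5:51567676-51567975, minus strand: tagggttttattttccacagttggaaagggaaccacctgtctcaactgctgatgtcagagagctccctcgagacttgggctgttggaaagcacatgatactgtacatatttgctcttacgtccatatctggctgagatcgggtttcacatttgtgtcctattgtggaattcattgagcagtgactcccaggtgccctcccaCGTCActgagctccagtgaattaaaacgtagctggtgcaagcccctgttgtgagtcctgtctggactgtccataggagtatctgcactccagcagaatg

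The downstream Hnf4a start lies 40347 bases inside the gene. Neither Hnf4a promoter held any of the motifs searched. The Nr1h4 promoter, 26927 bases inside the gene, held the nuclear receptor half-site AGGTCA on the opposite strand, beginning 214 bases before the start. The Ppargc1a promoter held TGACG, the half-site of the cyclic AMP response element, on the opposite strand, 49 bases before the start. AGGTCA occurred in 16.3% and TGACG in 20.8% of the 32851 mouse promoters of the same length. Both Rxra promoters and the Esrra promoter are not printed. The Esrra promoter and the first Rxra promoter, with a GC content of 66.0% and 83.0%, held no match, and the second Rxra promoter held AGGTCA once on each strand. The other motifs searched were TNAAGGTCA (ESRRA), CAAAGTCCA (HNF4A), TGACGTCA (cyclic AMP), TGAGTCA (AP-1) and the longer inverted repeat of FXR, direct repeat of AGGTCA and NF-kB site, with no match in any member. Several contain AGGTCA or TGACG. A match of letters describes the sequence and was not tied to binding here.

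Levels are given as CPM, a gene's counts scaled to the library's size. Libraries held 53296824 to 79339949 reads counted on genes, of which 12.4% to 22.2% lay on mitochondrial genes. The summed level of 12 proximal tubule markers was 28724 to 57033 CPM across libraries, against at most 3333 CPM for 4 markers of the thick ascending limb. Slc5a2 was at 371 to 518 CPM in WT placebo, 229 to 415 CPM in WT MAT2Ai and 43.5 to 85.9 CPM in SP MAT2Ai. In SP placebo it was at 241, 282, 70.1, 40.2 and 56.7 CPM in replicates 1 to 5. The libraries labelled SP placebo replicates 1 and 2 thus stood apart from the other 8 SP libraries. WT MAT2Ai replicate 2 stood apart from all others, with 89.7 on the first principal component against -22.8 to 21.8, and its tubular injury score was 2.60 against at most 0.77 elsewhere. This score is the mean log2 deviation of 26 injury genes from their mean over the libraries. Values without these libraries are given beside the results that they moved most.

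Per kilobase of exon, the 5 genes kept nearly the same order in every library. Hnf4a was highest at a mean of 182 CPM per kb (range 155 to 215, n = 20), above 98.6% of the 16060 tested genes with a length. Nr1h4 followed at 80.3 ± 12.1 CPM per kb (mean ± SD), above 96.4% of genes. Esrra was at 34.0 ± 5.12 and Rxra at 26.6 ± 2.06 CPM per kb. Ppargc1a, the coactivator, was lowest at 7.08 ± 0.83 CPM per kb, still above 70.4% of genes. Hnf4a, Nr1h4 and Ppargc1a held their places in 20 of 20 libraries, and Esrra was above Rxra in 18 of 20. The ranges of this neighbouring pair overlapped, at 17.9 to 40.4 CPM per kb for Esrra and 23.7 to 31.8 for Rxra. Nr1h4 and Esrra did not overlap, with the lowest Nr1h4 value at 61.5 CPM per kb.

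Variation between libraries was small for Hnf4a and Rxra and larger for the others. The highest CPM of a library exceeded the lowest 1.38-fold for Hnf4a, 1.34-fold for Rxra, 1.84-fold for Nr1h4, 1.95-fold for Ppargc1a and 2.25-fold for Esrra. The SD of log2 CPM within groups was 0.25 for Esrra, against a median of 0.13 over 866 tested genes of like level. It was 0.20 for Ppargc1a against 0.12 over 2036 genes, and 0.18 for Nr1h4 against 0.13 over 676 genes. Hnf4a, at 0.12 against 0.17 over 98 genes, and Rxra, at 0.11 against 0.13 over 886 genes, lay below the genes of like level. Depth does not limit these values, since the least abundant member, Ppargc1a, had 1815 to 3689 raw counts per library and Hnf4a had 43523 to 73222.

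**Figure D1:**
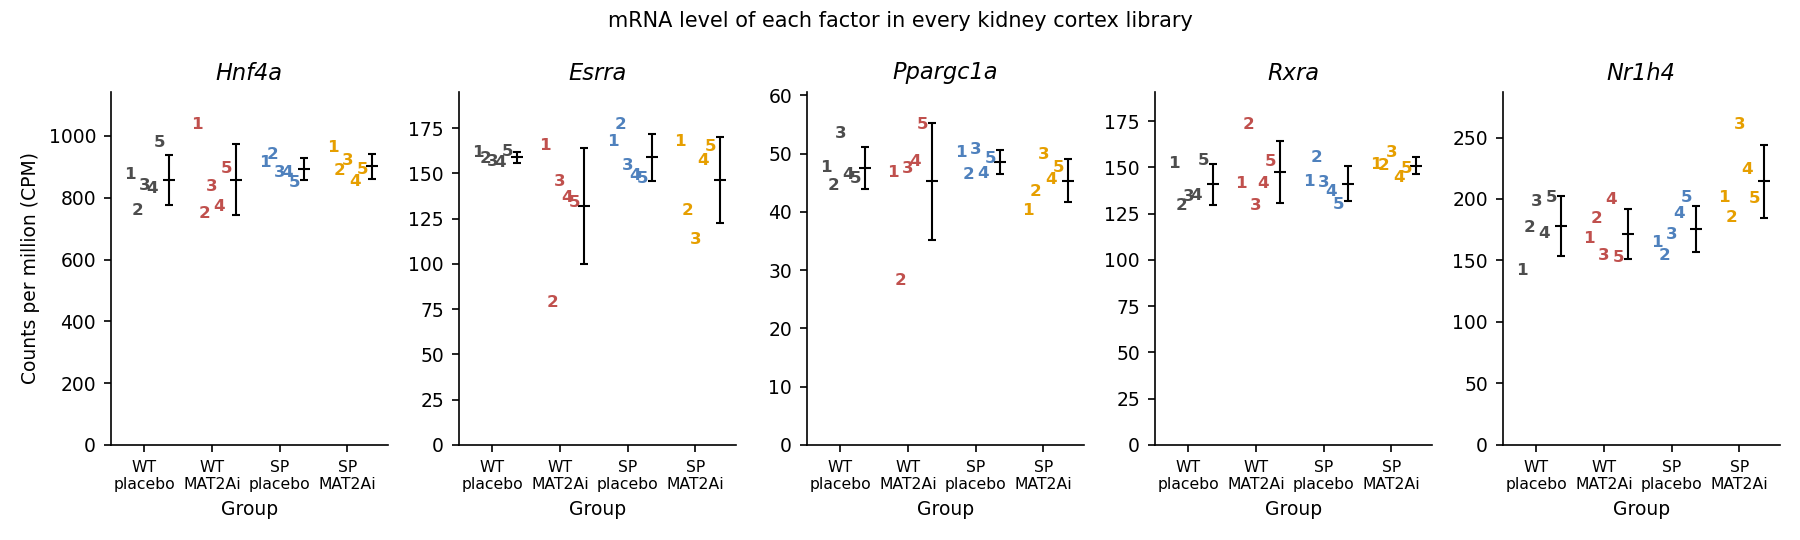
Level of each gene in CPM on a linear axis from 0, by group, with each library drawn as its replicate number and the mean and SD of the 5 libraries as a black bar beside it. Replicate 2 of WT MAT2Ai lies lowest for Esrra (78.6 CPM) and Ppargc1a (28.2 CPM), and replicate 3 of SP MAT2Ai lies highest for Nr1h4 (261 CPM).

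None of the 5 genes passed the adjusted p threshold of 0.05 in any comparison by edgeR's quasi-likelihood test. Nor did any by DESeq2, by edgeR's likelihood ratio test or by limma-voom. As background, the share of the 16152 tested genes that passed was 0% for WT MAT2Ai against WT placebo and 0.0186% for SP MAT2Ai against SP placebo. It was 0% for SP placebo against WT placebo and 1.84% for SP MAT2Ai against WT MAT2Ai. Averaged over the other factor, it was 0.223% for MAT2Ai against placebo and 1.33% for SP against WT, and it was 0% for the interaction of genotype and treatment. Except for the interaction, the calls behind these shares changed with single libraries. In WT MAT2Ai against WT placebo 0 genes became 27 without WT MAT2Ai replicate 4. In SP placebo against WT placebo 0 became 1 without WT placebo replicate 2. In SP MAT2Ai against SP placebo 3 became 0 without SP placebo replicate 1, 2, 3, 4 or 5 and 13 without WT MAT2Ai replicate 2. The 36 of MAT2Ai against placebo became 20 without SP MAT2Ai replicate 2 and 77 without WT MAT2Ai replicate 4. The 298 genes of SP MAT2Ai against WT MAT2Ai became 0 without SP MAT2Ai replicate 3 or 5, 1 without replicate 2, 38 without replicate 1 and 774 without WT MAT2Ai replicate 4. The 215 genes of SP against WT became 20 without SP placebo replicate 4 and 574 without WT MAT2Ai replicate 4. Read against these shares, a count of 0 of 5 says little about the members. At an unadjusted p under 0.05, Nr1h4 was the 1 member of 5 below the threshold for SP MAT2Ai against SP placebo, SP MAT2Ai against WT MAT2Ai and the interaction, and 0 of 5 were below it in the other 4 comparisons. The shares of all genes below it in the former were 5.92%, 21.8% and 5.59%, and in WT MAT2Ai against WT placebo 15.7%. For every member the groups overlapped in each of the 4 comparisons of a pair of groups. The share of all genes with overlapping groups was not computed, so this overlap says little about the members.

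Hnf4a was at a like level in all groups. In WT placebo it was at 874, 757, 840.1, 829 and 979 CPM in replicates 1 to 5. In WT MAT2Ai it was at 1039, 751, 837, 773 and 893 CPM. Both the highest and the lowest of the 20 libraries belonged to WT MAT2Ai. In SP placebo it was at 915, 940.4, 881, 880.3 and 849 CPM, and in SP MAT2Ai at 962, 888, 919, 851 and 892 CPM. Every SP library thus fell within the range of the WT libraries. The means were 856 ± 80.9, 858 ± 115, 893 ± 35.2 and 902 ± 41.0 CPM (SD, n = 5 each), in the order WT placebo, WT MAT2Ai, SP placebo and SP MAT2Ai. The log2 fold change with MAT2Ai was 0.00 ± 0.08 (SE) in WT mice, with a 95% interval of -0.16 to 0.17 (adjusted p = 0.987). In SP mice it was 0.01 (adjusted p = 0.995). SP against WT gave 0.06 under placebo and 0.07 under MAT2Ai (adjusted p = 0.99997 and 0.639). The 95% interval in WT mice covers changes up to about 0.17 in either direction, so changes within it are not excluded.

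Esrra was nearly constant in WT placebo and spread widely with MAT2Ai. It was at 161, 158, 157, 156 and 162 CPM in WT placebo and at 165, 78.6, 145, 137 and 134 CPM in WT MAT2Ai. In WT MAT2Ai, 4 of 5 libraries were below the lowest WT placebo library and 1 was above the highest. In SP placebo Esrra was at 167, 177, 154, 149 and 147 CPM, and in SP MAT2Ai at 168, 129, 114, 157 and 165 CPM. Here 2 of 5 treated libraries were below the lowest placebo library and none above the highest. The means were 159 ± 2.89, 132 ± 32.3, 159 ± 12.9 and 147 ± 23.8 CPM in the same order of groups. The log2 fold change with MAT2Ai was -0.27 ± 0.14 in WT mice, with an interval of -0.56 to 0.02 (adjusted p = 0.351). It was -0.12 ± 0.14 in SP mice (adjusted p = 0.986). Averaged over both genotypes it was -0.19 ± 0.10 (adjusted p = 0.364). The lower mean in WT MAT2Ai rested largely on replicate 2. Without that library the WT value was -0.13 (adjusted p = 0.723). SP against WT gave 0.00 under placebo (adjusted p = 0.99997) and 0.15 ± 0.14 under MAT2Ai (adjusted p = 0.548). The latter was 0.01 without WT MAT2Ai replicate 2.

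Ppargc1a, whose protein coactivates ESRRA, showed no such general spread. It was at 47.6, 44.5, 53.5, 46.4 and 45.7 CPM in WT placebo and at 46.7, 28.2, 47.4, 48.7 and 55.1 CPM in WT MAT2Ai. WT MAT2Ai replicate 2 was again the lowest library of 20 by a wide margin, whereas replicate 5 of that group was the highest. In SP placebo it was at 50.2, 46.4, 50.7, 46.5 and 49.1 CPM, and in SP MAT2Ai at 40.2, 43.6, 49.8, 45.6 and 47.7 CPM. In SP MAT2Ai 3 of 5 libraries were below the lowest SP placebo library. The means were 47.5 ± 3.53, 45.2 ± 10.1, 48.6 ± 2.04 and 45.4 ± 3.72 CPM. The log2 fold change with MAT2Ai was -0.07 ± 0.12 in WT mice and -0.10 ± 0.12 in SP mice (adjusted p = 0.793 and 0.986). In WT mice it was 0.05 without replicate 2. SP against WT gave 0.03 under placebo and 0.00 under MAT2Ai (adjusted p = 0.99997 and 0.987).

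Rxra, the common heterodimer partner, varied least between libraries. It was at 152, 129.7, 134.5, 134.6 and 154 CPM in WT placebo and at 141, 173, 129, 141 and 153 CPM in WT MAT2Ai. The library with the lowest Hnf4a, Esrra and Ppargc1a, WT MAT2Ai replicate 2, had the highest Rxra of all 20. In SP placebo Rxra was at 143, 155, 142, 137 and 129.8 CPM, and in SP MAT2Ai at 152, 151, 158, 145 and 149 CPM. All 5 SP MAT2Ai libraries were above the SP placebo mean, and the groups overlapped. The means were 141 ± 11.1, 148 ± 16.7, 141 ± 9.32 and 151 ± 4.80 CPM. The log2 fold change with MAT2Ai was 0.07 ± 0.07 in WT mice and 0.10 ± 0.07 in SP mice (adjusted p = 0.667 and 0.965). SP against WT gave 0.00 under placebo and 0.03 under MAT2Ai (adjusted p = 0.99997 and 0.825).

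Nr1h4, which encodes the bile acid receptor FXR, had its highest levels in SP mice given MAT2Ai. It was at 142, 177, 198, 172 and 202 CPM in WT placebo and at 168, 184, 154, 199 and 152 CPM in WT MAT2Ai. These groups covered the same range. In SP placebo it was at 165, 154, 171, 188 and 201 CPM, and in SP MAT2Ai at 202, 185, 261, 224 and 200.1 CPM. Of the 5 SP MAT2Ai libraries, 3 were above the highest SP placebo library, 4 were above the highest WT MAT2Ai library, and all 5 were above the mean of either group. The means were 178 ± 24.1, 172 ± 20.1, 176 ± 18.7 and 214 ± 29.5 CPM. The log2 fold change with MAT2Ai was -0.05 ± 0.11 in WT mice (adjusted p = 0.836). In SP mice it was 0.29 ± 0.11, with an interval of 0.06 to 0.51 (adjusted p = 0.833). SP against WT gave -0.02 under placebo (adjusted p = 0.99997).

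Under MAT2Ai, SP against WT gave 0.32 ± 0.11 for Nr1h4, with an interval of 0.10 to 0.55, and did not pass (adjusted p = 0.0969). By p it ranked 1248 among the tested genes. The adjusted p was 0.0506 by DESeq2, 0.0707 by the likelihood ratio test and 0.0971 by limma-voom. With 1 library left out at a time it ran from 0.0535 to 0.213, the last without SP MAT2Ai replicate 3, when the difference was 0.24. The interaction of genotype and treatment was 0.34 ± 0.15, with an interval of 0.02 to 0.66 (adjusted p = 0.842). Both comparisons share the SP MAT2Ai and WT MAT2Ai libraries and are not independent of each other. The MAT2Ai difference within SP mice was 0.21 without SP MAT2Ai replicate 3, and also 0.21 without SP placebo replicates 1 and 2. In whole cortex, fewer cells of a type and less mRNA per cell cannot be told apart. The summed endothelial markers (8 genes) were at 116 to 156 CPM in SP MAT2Ai, 139 to 232 in SP placebo and 120 to 292 in WT MAT2Ai, whereas the 12 proximal tubule markers were at 44507 to 49153, 46819 to 57033 and 28724 to 56870 CPM. Their part in the Nr1h4 values was not tested.

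**Figure D2:**
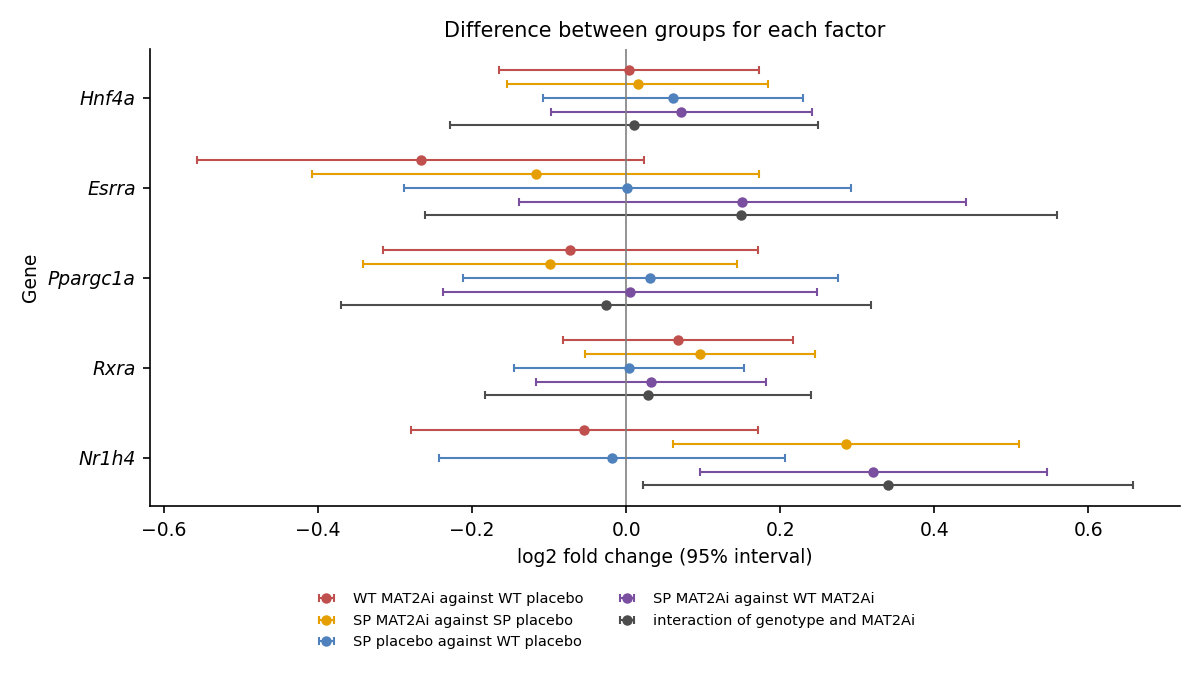
Log2 fold change of each gene (horizontal axis, with 95% intervals) in 5 comparisons, marked by colour. The interval excludes 0 for Nr1h4 alone, in SP MAT2Ai against SP placebo (0.06 to 0.51), SP MAT2Ai against WT MAT2Ai (0.10 to 0.55) and the interaction (0.02 to 0.66), before any adjustment for the number of genes.

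The levels of the 5 genes were next set against the injury score and against each other over the 20 libraries. In all, 20 relations were computed, 10 between members, 5 with the injury score and 5 with a score of 23 proximal tubule carriers. None had an adjusted p under 0.05 by permutation, and all libraries share 1 scaling. Esrra had Pearson's r = -0.80 with the injury score (permutation p = 0.00477, adjusted p = 0.0784) and Spearman's rho = -0.50 (permutation p = 0.0287, adjusted p = 0.129). Without the 2 libraries farthest on the score, WT MAT2Ai replicates 2 and 3, r was -0.33, and it was -0.32 without replicate 2 alone. For Ppargc1a r was -0.74 (permutation p = 0.0274, adjusted p = 0.0784) and rho -0.17 (permutation p = 0.478, adjusted p = 0.827). Without the same 2 libraries r was 0.05, and it was 0.04 without replicate 2 alone, so this relation rested on that library. For Hnf4a r and rho were both -0.53 (permutation p = 0.0154 and 0.0166, adjusted p = 0.0784 and 0.129), and r was -0.31 without these libraries and -0.34 without replicate 2 alone. Nr1h4 showed no such relation, with r = -0.06 and rho = -0.14 (permutation p = 0.785 and 0.548, adjusted p = 0.873 and 0.827), and r = 0.04 without them.

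Esrra and its coactivator Ppargc1a had r = 0.61 but rho = -0.13 (permutation p = 0.0433 and 0.582, adjusted p = 0.0963 and 0.827). Without SP MAT2Ai replicate 3 and WT MAT2Ai replicate 2, r was -0.24. It was -0.29 without WT MAT2Ai replicate 2 alone and 0.70 without SP MAT2Ai replicate 3 alone, so the pooled r rested on the former. Hnf4a and Esrra had r = 0.48 and rho = 0.50 (permutation p = 0.0342 and 0.0265, adjusted p = 0.0854 and 0.129), and r = 0.17 without WT MAT2Ai replicates 1 and 2, or 0.24 without replicate 2 alone. Hnf4a and the carrier score had r = 0.55 and rho = 0.49 (permutation p = 0.0126 and 0.0296, adjusted p = 0.0784 and 0.129), and r = 0.20 without WT MAT2Ai replicates 2 and 4. The permutations shuffled libraries across the 4 groups. With group means taken out, r with the injury score was -0.77 for Esrra, -0.82 for Ppargc1a, -0.54 for Hnf4a and 0.19 for Nr1h4. Between Esrra and Ppargc1a r was then 0.58. It was 0.53 for Hnf4a with Esrra and 0.53 for Hnf4a with the carrier score. These values include WT MAT2Ai replicate 2 and were not tested. The labels name no batch within which the relations could be computed.

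**Figure D3:**
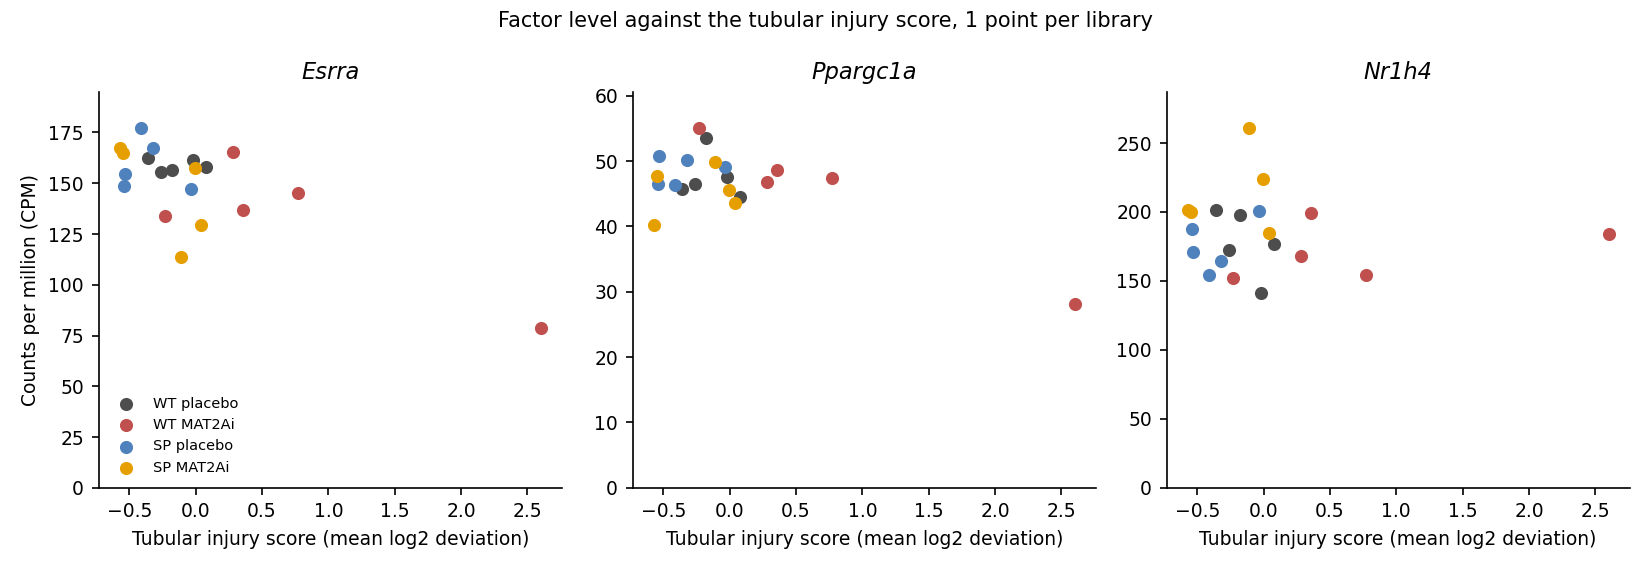
Level in CPM of Esrra, Ppargc1a and Nr1h4 (vertical axes from 0) against the tubular injury score, with 1 point per library coloured by group. WT MAT2Ai replicate 2 lies alone at a score of 2.60 with 78.6 CPM of Esrra and 28.2 CPM of Ppargc1a, whereas its Nr1h4 (184 CPM) lies among the other libraries.

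Genes that depend on HNF4A in the proximal tubule gave calls in SP MAT2Ai against WT MAT2Ai and in SP against WT averaged over treatments. In SP placebo against WT placebo 0 of the 44 tested passed, as did 0% of all genes. There 28 were positive, with a median of 0.01. Of 44 tested genes, 0 passed in WT MAT2Ai against WT placebo, where 13 had a positive fold change and the median was -0.09 against 0.01 over all genes. In this comparison 5 of the 44 were lower and 0 higher at an unadjusted p under 0.05, against 15.7% of all genes. In SP MAT2Ai against WT MAT2Ai, 3 of 44 were higher and 1 lower, where 1.84% of all genes were called, 29 were positive and the median was 0.14 against -0.02. Slc22a6 (OAT1, an organic anion carrier) rose by 0.55 ± 0.11 (adjusted p = 0.0266), from 1268 ± 211 to 1861 ± 128 CPM. Anpep (aminopeptidase N of the brush border) rose by 0.47 ± 0.10 and Slc22a12 (the urate carrier URAT1) by 0.36 ± 0.09 (adjusted p = 0.0360 and 0.0432). Slc5a2, the mutated gene itself, fell from 349 ± 74.6 to 61.8 ± 17.7 CPM (adjusted p = 0.0223). Without WT MAT2Ai replicate 2 the values were 0.46 for Slc22a6 and 0.39 for Anpep (adjusted p = 0.0273 and 0.0393), and Slc22a12 no longer passed (adjusted p = 0.0588). The count of 4 calls was 0 without SP MAT2Ai replicate 2, 3 or 5, 1 without SP MAT2Ai replicate 1, and 8 or 9 without WT MAT2Ai replicate 1, 4 or 5. Averaged over both treatments, 5 of 44 were higher and 1 lower in SP against WT, where 1.33% of all genes were called. Besides Slc22a6 (0.39 ± 0.07), Anpep (0.31 ± 0.07) and Slc22a12 (0.25 ± 0.06), the higher genes were Slc17a3, an organic anion carrier, with 0.30 ± 0.07 (adjusted p = 0.0416), and Cyp2e1, a cytochrome P450, with 0.39 ± 0.09 (adjusted p = 0.0434). Slc5a2 was the lower one. Without WT MAT2Ai replicate 2, 6 were higher and 1 lower, and with total-count scaling or a replicate block 2 were higher and 1 lower. Hnf4a itself differed by 0.07 in either comparison.

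The targets of ESRRA and PGC-1α, genes of the respiratory chain, the citrate cycle and fatty acid oxidation, shifted little in size. Of 53 tested genes, 0 passed in any comparison. In WT MAT2Ai against WT placebo 8 of 53 had a positive fold change (15.1%, against 52.6% of all genes), with a median of -0.09. In SP MAT2Ai against WT MAT2Ai 46 were positive (86.8% against 46.6%), with a median of 0.13. These comparisons share the WT MAT2Ai libraries. Without WT MAT2Ai replicate 2, 12 and 41 of 53 were positive, and 1 gene passed in the latter. In SP MAT2Ai against SP placebo 41 of 53 were positive, with a median of 0.04, and 29 of 53 when libraries were scaled by total count. Genes of 1 pathway share regulation and are not independent, and no test was made of the list. At an unadjusted p under 0.05, 6 genes were lower and 1 higher in WT MAT2Ai against WT placebo, against 15.7% of all genes. In SP MAT2Ai against WT MAT2Ai 23 were higher and 2 lower, against 21.8% of all genes. There the smallest p belonged to Nnt (mitochondrial transhydrogenase), with 0.28 (adjusted p = 0.0545). Cpt1a, a carnitine acyltransferase of fatty acid oxidation, had 0.27. Pdk4, a kinase that closes the pyruvate dehydrogenase gate, went the other way, with -2.60 (adjusted p = 0.0713). This value rested on WT MAT2Ai replicate 2, without which it was -0.06 (adjusted p = 0.949).

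Targets of FXR and RXR heterodimers gave calls in both directions. Of 37 tested genes, 2 were higher and 3 lower in SP MAT2Ai against WT MAT2Ai, where 1.84% of all genes were called. There 15 of the 37 were positive and the median was -0.23. The median was -0.06 without WT MAT2Ai replicate 2 and 0.08 without replicates 2, 3 and 4, so its sign rested on these libraries. Ehhadh, the bifunctional enzyme of peroxisomal fatty acid oxidation and a PPARA-RXR target, rose by 0.61 ± 0.09 (adjusted p = 0.0223). It was at 293 ± 19.3 CPM (262 to 316) in WT MAT2Ai and 445 ± 50.2 CPM (373 to 494) in SP MAT2Ai. Ddah1, which degrades asymmetric dimethylarginine, rose by 0.34 ± 0.09 (adjusted p = 0.0483). Nos3 (endothelial nitric oxide synthase) fell by 0.80 ± 0.17 on the log2 scale (adjusted p = 0.0354). The summed endothelial markers, given above, were also lower in SP MAT2Ai, and their part was not tested. Cyp27b1, which activates vitamin D, and Abcc3, a bile salt exporter, fell by 2.23 ± 0.54 and 1.67 ± 0.41 on the log2 scale (adjusted p = 0.0432 and 0.0441). Without WT MAT2Ai replicate 2, Abcc3 (-1.32, adjusted p = 0.0809) and Ddah1 (0.26, adjusted p = 0.0522) no longer passed, whereas Ehhadh, Nos3 and Cyp27b1 did. The count of 5 calls was 0 without SP MAT2Ai replicate 3 or 5 and 1 without replicate 1 or 2. It was 2 or 3 without WT MAT2Ai replicate 3, WT placebo replicate 1, 3, 4 or 5 or SP placebo replicate 1, 2 or 3, and 8 without WT MAT2Ai replicate 4 or 5. Of the direct FXR targets, Slc51a (a subunit of the basolateral bile acid carrier) was at 228 ± 32.0 CPM in SP MAT2Ai and 199.9 ± 33.4 CPM in WT MAT2Ai, a difference of 0.19 ± 0.11 (adjusted p = 0.309). Nr0b2 (the repressor SHP) was at a low level, 0.36 to 1.62 CPM across libraries. Between the same groups it differed by 0.205 ± 0.28 (adjusted p = 0.712). Nr1h4 itself differed by 0.32 in that comparison.

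**Figure D4:**
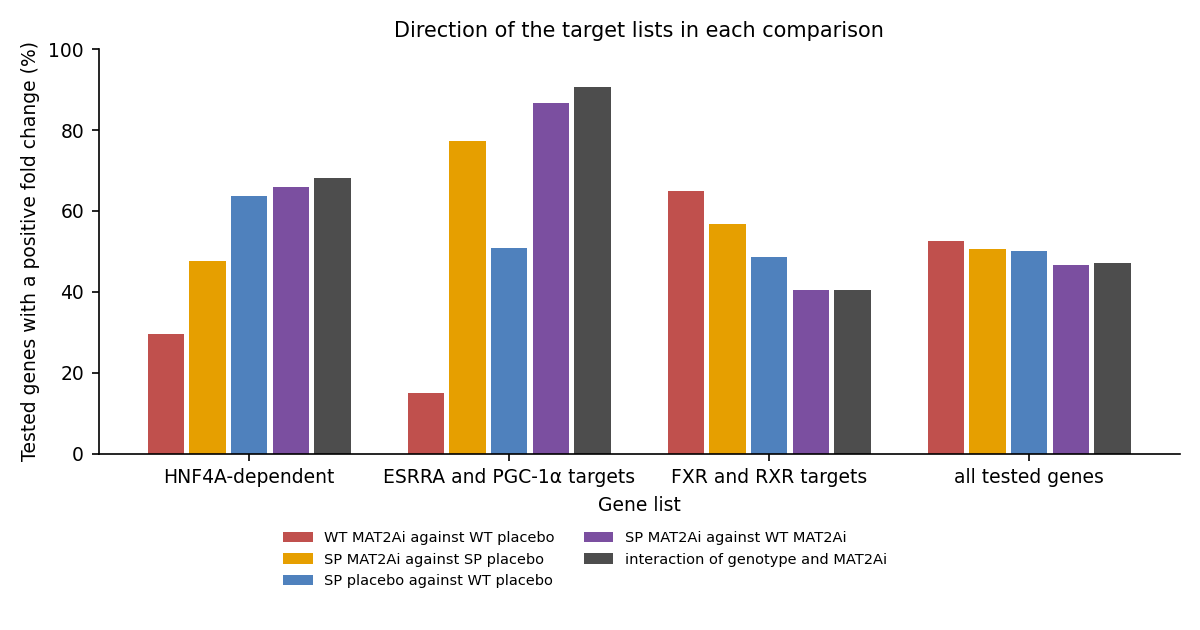
Share of tested genes with a positive log2 fold change (vertical axis, %) for 3 target lists and for all tested genes, with 1 bar per comparison. For the ESRRA and PGC-1α targets the share is 15.1% in WT MAT2Ai against WT placebo and 90.6% in the interaction, against 52.6% and 47.2% of all genes, and these comparisons share the WT MAT2Ai and WT placebo libraries.

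Partner transcription factors and coregulators were examined in the same way. Of 39 tested factors, 2 passed in SP MAT2Ai against WT MAT2Ai, where 1.84% of all genes were called. Sox9, a factor of regenerating tubule cells, fell by 4.51 ± 1.11 on the log2 scale (adjusted p = 0.0440), which rested on 1 library: WT MAT2Ai replicate 2 had 40.7 CPM and the other 4 of that group at most 1.54. Without it Sox9 had an adjusted p of 0.353. Averaged over both treatments, SP against WT gave -0.87 ± 0.19 for Nr1i2, the xenobiotic receptor PXR and an RXR partner (adjusted p = 0.0348). Of 31 tested coregulators and upstream kinases, 1 passed in SP MAT2Ai against WT MAT2Ai, against 1.84% of all genes. Prkaa2, a catalytic subunit of AMPK, which acts upstream of PGC-1α, rose by 0.38 ± 0.09 (adjusted p = 0.0438), and without WT MAT2Ai replicate 2 it was 0.30 and no longer passed (adjusted p = 0.0528). These calls lay close to the threshold. With 1 library left out at a time, 0 factors passed for 13 of the 20 libraries, among them all 5 of SP MAT2Ai, 1 passed without WT MAT2Ai replicate 4 and 8 without WT MAT2Ai replicate 1 or 5. No coregulator passed for 13 of the 20 libraries either, and 2 passed without WT MAT2Ai replicate 1 or 5.

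The tubular injury genes had larger median differences than the pathway lists above when WT MAT2Ai was compared with WT placebo or SP MAT2Ai. In SP MAT2Ai against SP placebo their median was 0.09, with 15 of 26 positive, and that of the partner factors was also 0.09. In WT MAT2Ai against WT placebo 24 of 26 were positive, with a median of 0.96, and 0 passed. Without replicate 2 the median was 0.34. In SP MAT2Ai against WT MAT2Ai 0 of 26 were positive, with a median of -1.28. There 8 were called lower, against 1.84% of all genes called. The 8 included Plaur (-1.44 ± 0.25), Anxa2 (-1.41 ± 0.31) and Lcn2 (-5.90 ± 1.34). Without WT MAT2Ai replicate 2 the median was -0.60 and 5 were lower. Lcn2 was then -1.59 and no longer passed (adjusted p = 0.173), Anxa2 was -0.85 (adjusted p = 0.0359) and Plaur -1.30 (adjusted p = 0.0345). The count of 8 was 0 without SP MAT2Ai replicate 2, 3 or 5 and 1 without replicate 1. It was 3 to 5 without WT placebo replicate 3, 4 or 5 or SP placebo replicate 1, 2 or 3, and 13 and 15 without WT MAT2Ai replicates 1 and 5. Markers of other cells were also lower in that comparison. All 7 macrophage markers were negative, with a median of -0.93 and 3 called lower, and their sum was 78.5 to 169.6 CPM in SP MAT2Ai against 189.7 to 1729.5 CPM in WT MAT2Ai. All 7 fibroblast and mural markers were negative, with a median of -0.80 and 3 called lower, and their sum was 43.5 to 82.3 against 63.5 to 141 CPM. All 8 endothelial markers were negative, with a median of -0.56 and 0 called by edgeR. Of them, 7 had an unadjusted p under 0.05, against 21.8% of all genes. The part of these cells in the injury values was not tested. Esrra was lowest of all 20 in the library with the highest injury score.

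The genes whose log2 CPM followed each member most closely over the 20 libraries were found among 11897 candidates and are given as a description. For Esrra they were Miga2 (r = 0.95), Dbp (0.95), Atp6v1c1 (0.93) and Slc22a5 (0.93), and without WT MAT2Ai replicate 2 the values were 0.91, 0.90, 0.80 and 0.82. Dbp encodes a clock-controlled factor and Slc22a5 the carnitine carrier OCTN2. For Ppargc1a they were Acsm5, Slc16a7 and Nfyc (each 0.89) and Ppp2r5a (0.88), which without that library were 0.47, 0.46, 0.63 and 0.55. This likeness thus rested largely on 1 library. For Hnf4a they were Tanc2 (0.84), Cdadc1 (0.83), Slc35e1 (0.82) and Rabl6 (0.82), for Rxra Pi4k2a (0.83), Necap2 (0.80), Ppp2r1b (0.79) and Arhgef5 (0.78), and for Nr1h4 Gtpbp4 (0.77), Clpx (0.76), Med16 (0.74) and Clasp1 (0.73). Without that library these 12 values ran from 0.69 to 0.83. Members themselves were not among the candidates.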

How the data were processed

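Poly(A) RNA of kidney cortex was sequenced from strand-specific libraries. The authors aligned the reads to mm10 with STAR and deposited raw counts per gene for each library, made with htseq-count and Ensembl release 78. The htseq-count version and strand setting are not given in the sources used here. The 5 summary lines of each file (3.87% to 5.50% of reads outside genes, 0.702% to 0.794% ambiguous, as shares of gene, ambiguous and outside reads together) entered neither library sizes nor tests. Gene symbols, coordinates and exon lengths came from GENCODE M21.

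Counts were filtered (filterByExpr), scaled by TMM and fitted with edgeR 4.0.16 in R 4.3.3, with 1 coefficient for each of the 4 groups over all 20 libraries. The quasi-likelihood test with Benjamini-Hochberg adjustment over 16152 genes and a threshold of 0.05 was the test of every comparison. Its check on simulated counts covered SP MAT2Ai against SP placebo alone, with planted changes larger than any seen for the members. CPM values are relative to the TMM-scaled library size, and log2 CPM used a prior count of 2. Marker sums are in CPM of the unscaled library size. DESeq2 1.42.0, limma 3.58.1 (voom with weights) and the likelihood ratio test were alternatives, with other scalings, no filter and left-out libraries. Relations used 100000 two-sided permutations over libraries, adjusted over the 20 relations. Named genes were the 5 members, up to 4 genes with the smallest p of each list and any of it that passed (up to 8), and the 4 genes most like each member, with Slc51a and Nr0b2 named after their values were seen. The members and lists were chosen with earlier results of these data known. The labels number the replicates without naming animals, so p-values measure the spread between these libraries. Some genes of the lists are not reported here.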

Additional observations from a re-analysis of the deposited data

Results flagged for a closer look

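For 4 groups of 5 libraries, the level of each member, 11 other genes, 2 scores and 11 summed marker lists was examined for 1 library far from the other 4 by Dixon's test (limit 0.710). In 116 groups, 9 libraries were found. Chance gives about 1 in 20 groups, so the 9 are not far above it, and some of the values examined share genes. None of the 20 groups of member values held one. In WT MAT2Ai replicate 2 Anpep was lowest at 157 CPM, Sox9 highest at 40.7 CPM and the lymphocyte markers highest at 19.3 CPM. In WT MAT2Ai replicate 5 Cd74 was highest at 1720 CPM, the macrophage markers, which include Cd74, highest at 1730 CPM and the hepatocyte markers lowest at 182 CPM. In SP placebo replicate 5 the macrophage markers were highest at 228 CPM and the lymphocyte markers at 23.8 CPM. In WT placebo replicate 2 the podocyte markers were highest at 205 CPM.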

How the results depend on the processing

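No member passed the threshold under any of the alternatives run, and the members' differences whose sign changed were uncalled. The 19 list genes called in SP MAT2Ai against WT MAT2Ai kept their direction in 588 of 589 alternatives, all but 1 of Lcn2, and lost their call in 235. These genes were picked by their call in the same libraries, so a kept direction is no independent support. The values below are log2 fold changes, and the cause of a change of sign was not tested. Hnf4a in WT MAT2Ai against WT placebo was -0.0061 with median-of-ratios size factors and with DESeq2, -0.0032 without mitochondrial genes, -0.0001 without the filter, -0.0037 with the compared groups alone and -0.0003 with a replicate block. In SP placebo against WT placebo, Esrra was -0.003 with median-of-ratios size factors and with DESeq2, -0.0027 without mitochondrial genes, -0.0144 with total-count scaling, -0.0007 with limma-voom and -0.0003 with the compared groups alone. Rxra was there -0.0008, -0.0007, -0.0003 and -0.0118 with median-of-ratios size factors, DESeq2, mitochondrial genes left out and total-count scaling. Without SP placebo replicates 1 and 2 that comparison gave -0.0873 for Esrra, -0.0546 for Rxra and 0.0627 for Nr1h4, and Rxra in SP against WT averaged over treatments was -0.0092. Total-count scaling, which lowered the median of all genes in SP MAT2Ai against WT MAT2Ai to -0.093, gave -0.0008 for Hnf4a, -0.061 for Ppargc1a and -0.0437 for Rxra there. It also gave -0.0169 for Hnf4a in SP MAT2Ai against SP placebo, -0.0217 for Ppargc1a and -0.0277 for Rxra in SP against WT averaged over treatments, and -0.0466 for Hnf4a and -0.0318 for Rxra in the interaction. The correlation of Nr1h4 with the injury score was then 0.1052 and with the carrier score -0.0334. With limma-voom, SP MAT2Ai against WT MAT2Ai was -0.0012 for Hnf4a and -0.0582 for Ppargc1a, the averaged SP difference of Ppargc1a -0.0186 and the interaction of Hnf4a -0.0696.

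Without WT MAT2Ai replicates 2, 3 and 4, Ppargc1a in WT MAT2Ai against WT placebo was 0.094. SP MAT2Ai against WT MAT2Ai was then -0.0984 for Hnf4a, -0.0301 for Esrra, -0.1654 for Ppargc1a and 0.2792 for Lcn2. The averaged SP difference was -0.0192 for Hnf4a, -0.0148 for Esrra and -0.0677 for Ppargc1a, and the interaction -0.1582 for Hnf4a and -0.0306 for Esrra.

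Counts of list genes called in SP MAT2Ai against WT MAT2Ai depended more on the settings, which were added after seeing the data. For partner transcription factors (2 called) the count was 7 by DESeq2, 6 by the likelihood ratio test, 1 by limma-voom and with total-count scaling, and 0 with the replicate block, without SP placebo 1 and 2, without WT MAT2Ai 2, 3 and 4 and with the compared groups alone. For coregulators (1 called) it was 2 by DESeq2 and the likelihood ratio test and 0 in those last 3 settings, with total-count scaling and without the filter. For HNF4A-dependent genes (4 called) it was 13 by DESeq2, 10 by the likelihood ratio test and 1 without WT MAT2Ai 2, 3 and 4 or with the compared groups alone. For FXR and RXR targets (5 called) it was 9 by DESeq2, 10 by the likelihood ratio test, 1 with the replicate block, 2 without SP placebo 1 and 2, 1 without WT MAT2Ai 2, 3 and 4 and 0 with the compared groups alone. For injury genes (8 called) it was 14 by the likelihood ratio test, 5 by limma-voom, 1 with the replicate block, 3 without SP placebo 1 and 2, and 0 without WT MAT2Ai 2, 3 and 4 and with the compared groups alone.

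Over all genes, the count called in SP MAT2Ai against WT MAT2Ai was 298, against 1203 by DESeq2, 945 by the likelihood ratio test, 397 by limma-voom, 481 with total-count scaling, 88 with the replicate block, 126 without SP placebo 1 and 2, 149 without WT MAT2Ai 2, 3 and 4, 2 with the compared groups alone and 0 to 774 with 1 library left out. In WT MAT2Ai against WT placebo it was 0, against 215, 178 and 2 by DESeq2, the likelihood ratio test and limma-voom. In SP placebo against WT placebo it was 0, against 7, 7 and 4 by the same tools, and for the interaction 0, against 1, 1 and 0. Averaged over treatments, 215 genes were called for SP against WT, against 894 by DESeq2, 677 by the likelihood ratio test, 1341 by limma-voom, 114 with the replicate block, 461 without WT MAT2Ai 2, 3 and 4 and 20 to 574 with 1 library left out. Libraries with the same replicate number did not vary together (30 pairs, mean r = -0.0158, 4 over 0.1, and 6 of 20 libraries nearest to their own number), so the numbers were not taken as pairs.

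Leaving out 1 library at a time, WT MAT2Ai against WT placebo ran from -0.0849 to 0.0468 for Hnf4a, -0.1536 to 0.0522 for Ppargc1a and -0.0017 to 0.1013 for Rxra. SP MAT2Ai against SP placebo ran from -0.0062 to 0.0352 for Hnf4a, and the averaged MAT2Ai difference from -0.0364 to 0.0293. SP placebo against WT placebo ran from -0.0404 to 0.0271 for Esrra, -0.0322 to 0.0347 for Rxra and -0.0909 to 0.0273 for Nr1h4. SP MAT2Ai against WT MAT2Ai ran from -0.1242 to 0.0863 for Ppargc1a and -0.006 to 0.0973 for Rxra, and averaged from -0.0473 to 0.0589 and -0.0019 to 0.0497. The interaction ran from -0.0351 to 0.0969 for Hnf4a, -0.1538 to 0.0549 for Ppargc1a and -0.0081 to 0.0952 for Rxra. Correlations ran from -0.2857 to 0.7026 for Esrra and Ppargc1a, -0.1513 to 0.3974 for Hnf4a and Ppargc1a, -0.1189 to 0.0596 for Hnf4a and Nr1h4, -0.1839 to 0.0137 for Ppargc1a and Nr1h4 and -0.0553 to 0.1942 for Rxra and Nr1h4. With the injury score they ran from -0.8286 to 0.035 for Ppargc1a, -0.4135 to 0.4475 for Rxra and -0.142 to 0.0113 for Nr1h4, and with the carrier score from -0.3166 to 0.4522, -0.2459 to 0.1957 and -0.0313 to 0.129. List counts ran from 0 to 8 for partner factors, 0 to 2 for coregulators, 0 to 9 for HNF4A-dependent genes, 0 to 8 for FXR and RXR targets and 0 to 15 for injury genes.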

Other observations

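The library with the highest Nr1h4, SP MAT2Ai replicate 3 (261 CPM), also had the second lowest Esrra of all 20 (114 CPM). Counted from the lowest, its Rxra (158 CPM) ranked 19 of 20. Its Hnf4a (919 CPM) and Ppargc1a (49.8 CPM) each ranked 16. Hnf4a and Rxra had r = 0.20 and rho = 0.49 over the 20 libraries (permutation p = 0.397 and 0.0322, adjusted p = 0.566 and 0.129), and r = 0.72 without WT MAT2Ai replicates 1 and 2. Replicate 2 held the highest Rxra and the lowest Hnf4a. This value was noticed after leaving out libraries and has no test of its own.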
